A study of Homo sapiens with 8 samples.

Results

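Raji is an established line of B lymphoblasts from a Burkitt lymphoma. In the study, the super-enhancer at RGS1 and RGS13 on chromosome 1 (RGS-SE) was deleted from these cells with Cas9 and 2 guides. The labels give the interval as chr1:192515157-192741754 on hg38, and how much of it was lost was not examined here. Wild-type and RGS-SE knockout cells were compared by poly(A) RNA sequencing and by ATAC-seq, which reads how accessible DNA is to a transposase. Each genotype had 2 libraries per assay. The knockout cells are single clones by the labels, whose number is not given, so the deletion and other properties of a clone cannot be told apart. Knockout cells had also been electroporated and selected with puromycin, and whether the wild-type cells had been is not given. In bulk RNA, fewer cells with a transcript and less of it per cell cannot be told apart either. Here the nuclear genes of the mitochondrial ribosome are described: the rows of the RNA table named MRPL or MRPS with 1 or 2 digits and at most 1 letter A, B or C. They were 78 of 25377 genes, 49 named for the large subunit and 29 for the small one, on 21 chromosomes. In the ATAC table, 50 of 8420 promoter peaks carried the name of a member, 31 for large and 19 for small subunit genes. A further 24 rows, pseudogenes and noncoding genes with names of this kind, were left out.

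The mitochondrial ribosome translates the few proteins encoded by mitochondrial DNA, all subunits of the oxidative phosphorylation complexes. Its RNAs come from mitochondrial DNA, while all of its proteins are encoded in the nucleus, translated in the cytosol and imported. Many of these proteins have bacterial counterparts and others are specific to mitochondria. The subunits are reported apart by gene name. The name is not always the place: in the human structure the products of MRPS30 and MRPS18A sit in the large subunit, and MRPS36 is now known as a part of the 2-oxoglutarate dehydrogenase complex.

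All effects below are log2 fold changes of the knockout over the wild type with standard errors (SE) from the authors' deposited tables, tested by DESeq2's Wald test with Benjamini-Hochberg adjustment over all genes or all peaks. The threshold was an adjusted p of 0.05. The table headers do not name the direction. It was read from 1 peak (chr1:192609102-192609836), the one with the lowest log2 fold change in the labelled interval. Its fitted normalised count was 622 on one side and 0.186 on the other in the authors' deposited table, with a log2 fold change of -11.71. Choosing the lowest peak favoured a negative sign. The value was also the lowest of all 70312 peaks, and the other peaks of the interval are not given here. A positive value was therefore taken as higher in the knockout, and all directions would turn if the coding were the reverse. For each genotype, a fitted normalised count was obtained from the deposited mean and fold change. Values of single libraries were not used here, so it could not be examined whether libraries of the genotypes overlapped. The sequenced cells expressed all 8 B cell markers examined (means of 1924 to 27701 normalised counts), whereas of 7 T and NK cell markers and 6 myeloid markers 2 and 4 were in the table, with means of at most 5.76 and 38.3. The depths of the 2 wild-type RNA libraries, read from genes with 1 counted fragment, were 1.82-fold apart. RGS1 itself rose by 3.49 on the log2 scale in the authors' deposited table (SE 0.18, adjusted p 7.54e-79 by DESeq2), and RGS13 was at -0.20 (SE 0.22, adjusted p 0.628). Both were thus still expressed in the knockout, with fitted normalised counts of 4821 for RGS1 and 5583 for RGS13.

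The promoters of these genes were examined first, because the ATAC peaks lie on them. RefSeq windows from 250 bases before to 50 bases after the start (GRCh38.p14) were at hand for 69 of the 78 genes, 85 windows in all. Each window was searched on both strands for 5 short motifs. The ETS motif CCGGAAG, read by GABPA, was in 38.8% of member windows, 10.3% of all windows and 12.8% of the windows of protein-coding genes. The YY1 motif GATGGCGG was in 15.3% of member windows, 2.34% of all and 3.06% of protein-coding ones. The NRF1 motif GCGCATGCG was in 3.53%, 1.92% and 2.36%, the E-box CACGTG in 10.6%, 7.26% and 8.34%, and the SP/KLF motif GGGGCGGGG in 22.4%, 15.7% and 20.6%. None of the 5 motifs contains another. Large and small subunit windows were close in ETS share, 36.5% and 42.4%, and in YY1 share, 15.4% and 15.2%. A match is a description of the letters and not a bound site.

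In 12 members with YY1 letters, the 8 bases on either side could be read as well. For comparison, 6 of them, chosen after the letters were seen, are shown on the motif's strand with the motif in capitals, because they show the site together with its flanks. Of all 12, 9 had the first base of the motif 8 to 25 bases after the gene's start, as in the 6 shown, and 3 before the start (MRPL32, MRPL36 and MRPL52). In all 12 the motif was preceded by 2 a's. MRPS18B and MRPS24 are the 2 members with these letters whose RNA fell, and the RNA of the other 4 did not pass the threshold. The sites lie at chr6:30617857-30617880, chr7:43869481-43869504, chr6:42217835-42217858, chr9:101398578-101398601, chr17:75904861-75904884 and chr15:88467363-88467386, in the order listed.
MRPS18B: tacgtcaaGATGGCGGcgtctgta
MRPS24: tggcccaaGATGGCGGcctccgtg
MRPS10: accggcaaGATGGCGGcgcggaca
MRPL50: tcatcgaaGATGGCGGcgcgatct
MRPL38: ggagggaaGATGGCGGcgccctgg
MRPL46: gaacgaaaGATGGCGGcgcccgta

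The 150 bases before the start are given for 7 genes on which the comparison of RNA with accessibility turns. In all 7, these bases lie wholly within the gene's own promoter peak. Capitals mark ETS and SP/KLF letters on either strand. The first 2 genes were lower in the knockout in both assays, the next 3 were higher in both, and MRPS14 and MRPS34 differed between the assays. The stretches lie at chr21:25607482-25607631 (MRPL39, minus strand), chr6:30617690-30617839 (MRPS18B, plus), chr6:159789662-159789811 (MRPL18, plus), chr16:370539-370688 (MRPL28, minus), chr2:223957313-223957462 (MRPL44, plus), chr1:175023426-175023575 (MRPS14, minus) and chr16:1773135-1773284 (MRPS34, minus).
MRPL39: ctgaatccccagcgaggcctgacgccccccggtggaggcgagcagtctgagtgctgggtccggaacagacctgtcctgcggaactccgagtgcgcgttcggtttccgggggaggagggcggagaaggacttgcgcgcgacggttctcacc
MRPS18B: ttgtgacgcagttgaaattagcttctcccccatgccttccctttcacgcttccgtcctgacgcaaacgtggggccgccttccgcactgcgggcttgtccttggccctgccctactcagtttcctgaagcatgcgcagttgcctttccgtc
MRPL18: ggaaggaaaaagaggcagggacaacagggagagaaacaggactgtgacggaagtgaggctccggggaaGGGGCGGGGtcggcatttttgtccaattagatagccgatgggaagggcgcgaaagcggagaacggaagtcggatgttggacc
MRPL28: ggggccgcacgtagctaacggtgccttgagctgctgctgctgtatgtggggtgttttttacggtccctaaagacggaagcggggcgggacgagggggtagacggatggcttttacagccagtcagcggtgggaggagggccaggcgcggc
MRPL44: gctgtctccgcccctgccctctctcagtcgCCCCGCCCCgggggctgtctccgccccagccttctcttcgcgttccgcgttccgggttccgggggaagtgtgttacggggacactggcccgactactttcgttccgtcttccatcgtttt
MRPS14: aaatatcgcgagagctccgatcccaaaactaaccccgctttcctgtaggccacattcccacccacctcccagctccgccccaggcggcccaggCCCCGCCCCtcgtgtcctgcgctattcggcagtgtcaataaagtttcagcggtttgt
MRPS34: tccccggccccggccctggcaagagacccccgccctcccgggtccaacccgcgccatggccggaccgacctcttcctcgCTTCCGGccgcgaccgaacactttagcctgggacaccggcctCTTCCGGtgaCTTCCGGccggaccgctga

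MRPS34 holds 3 ETS matches in this stretch. By RNA result, the ETS letters were in the windows of 2 of 5 genes that rose, 1 of 4 that fell and 27 of 60 that did not pass the threshold. The YY1 letters were in 0 of 5, 2 of 4 and 11 of 60. Of the 5 that rose, the ETS letters were in MRPL18, before another of its starts, and in MRPL28, 7 to 13 bases after the start. Neither site is in the stretches shown. The differences between these groups of genes were not tested.

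All 78 genes were expressed and tested. Levels between genes are given per kb of the Ensembl canonical transcript in GENCODE 44, as the mean normalised count over the 4 libraries. On this scale the large subunit genes had a median of 938 and the small subunit genes one of 1366, against 13118 for 81 cytosolic ribosomal protein genes and 134 for all genes tested. Per kb of all annotated exon, the same medians were 588 for the large and 424 for the small subunit, so the order of the subunits turns with the definition of length and is not read. The genes with the highest level per kb of all exon were MRPS34 (3489), MRPS35 (2596) and MRPS18B (2338) in the small subunit and MRPL18 (2038), MRPL39 (1983) and MRPL3 (1905) in the large one. MRPS34 was also second of the 78 per kb of canonical transcript, at 3818, after MRPL4 at 4092. MRPL4 was 11th per kb of all exon, so the order of single genes also depends on the length used. The lowest mean counts were 82.6 for MRPL33 and 177 for MRPL36 in the large subunit, and 132 for MRPS36 and 274 for MRPS18C in the small one. Read assignment limits some of these levels: exons of 41 members overlap those of another gene, 30 on the opposite strand, and whether counting used the strand is not given in the sources used here. For MRPS34 the overlapping gene is EME2, and for MRPL28 it is PGAP6.

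**Figure D1:**
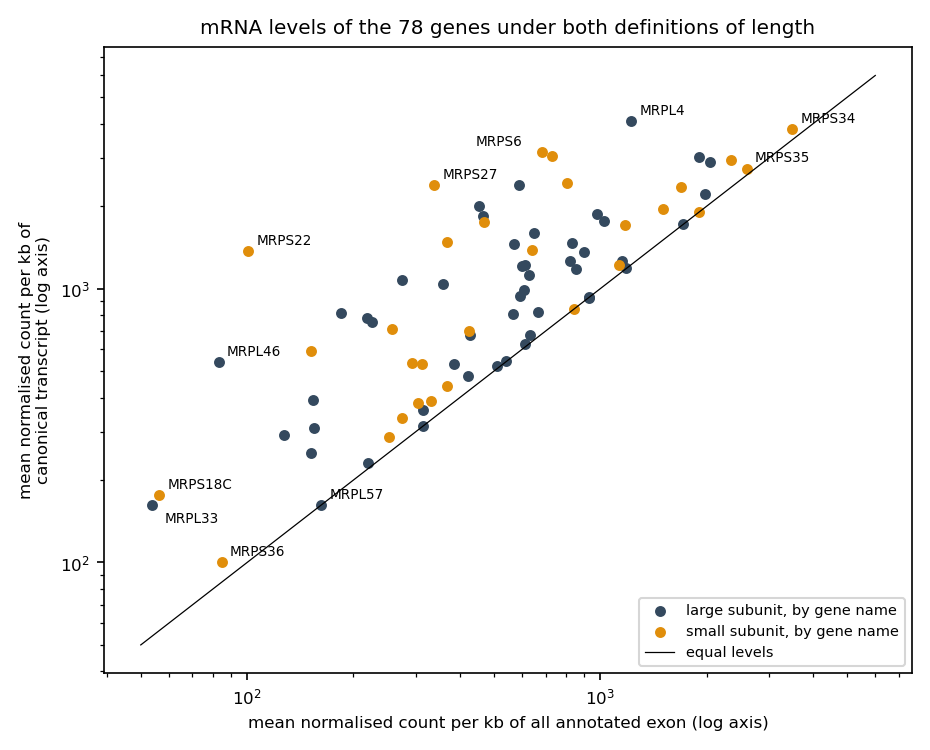
Mean normalised RNA count per kb of all annotated exon (horizontal, log axis) against the same count per kb of the canonical transcript (vertical, log axis) for 49 large (dark) and 29 small (orange) subunit genes, 1 point a gene, with the line of equal levels. MRPS34 is high on both axes, while MRPS27 and MRPS22 lie far above the line because most of their annotated exon is outside the canonical transcript.

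The mRNAs of the mitochondrial ribosome changed little in the knockout. Of 49 large subunit genes, 4 rose, 2 fell and 43 did not pass the threshold (12.2% called). Of 29 small subunit genes, 2 rose, 3 fell and 24 did not pass (17.2% called). Among all 17013 genes tested 19.2% were called, 9.89% higher and 9.28% lower, and among the 11024 with a mean of at least 80, a bound set after seeing that the lowest member lies at 82.6, 25.8%. With all statistics scaled by their robust spread over the table (1.70), or tested against a change of 1.5-fold, 0 of the 78 passed an adjusted p of 0.05 from DESeq2's estimates, with 5 large and 1 small subunit genes at an unadjusted p under 0.05 on the scaled statistics and 0 in the test against 1.5-fold. Centred on the median of each chromosome, the large subunit had 3 genes higher and 6 lower, 5 of these 9 among the 6 above, so the balance of the directions depends on the centring. No member differed by more than 1 log2 unit, against 11.4% of genes with a mean of at least 80. The 95% interval of the fold change lay within 1 log2 unit of no change for 39 of 49 large and 26 of 29 small subunit genes. The median log2 fold change was -0.07 for the large subunit, -0.00069 for the small one and 0.02 for all genes tested. Summed over members, the fitted normalised count in the knockout was 97.4% of the wild type for the large subunit and 96.9% for the small one, against 102.7% for all genes tested and 91.2% for cytosolic ribosomal protein genes. These sums have no error, since they come from fitted values.

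**Figure D2:**
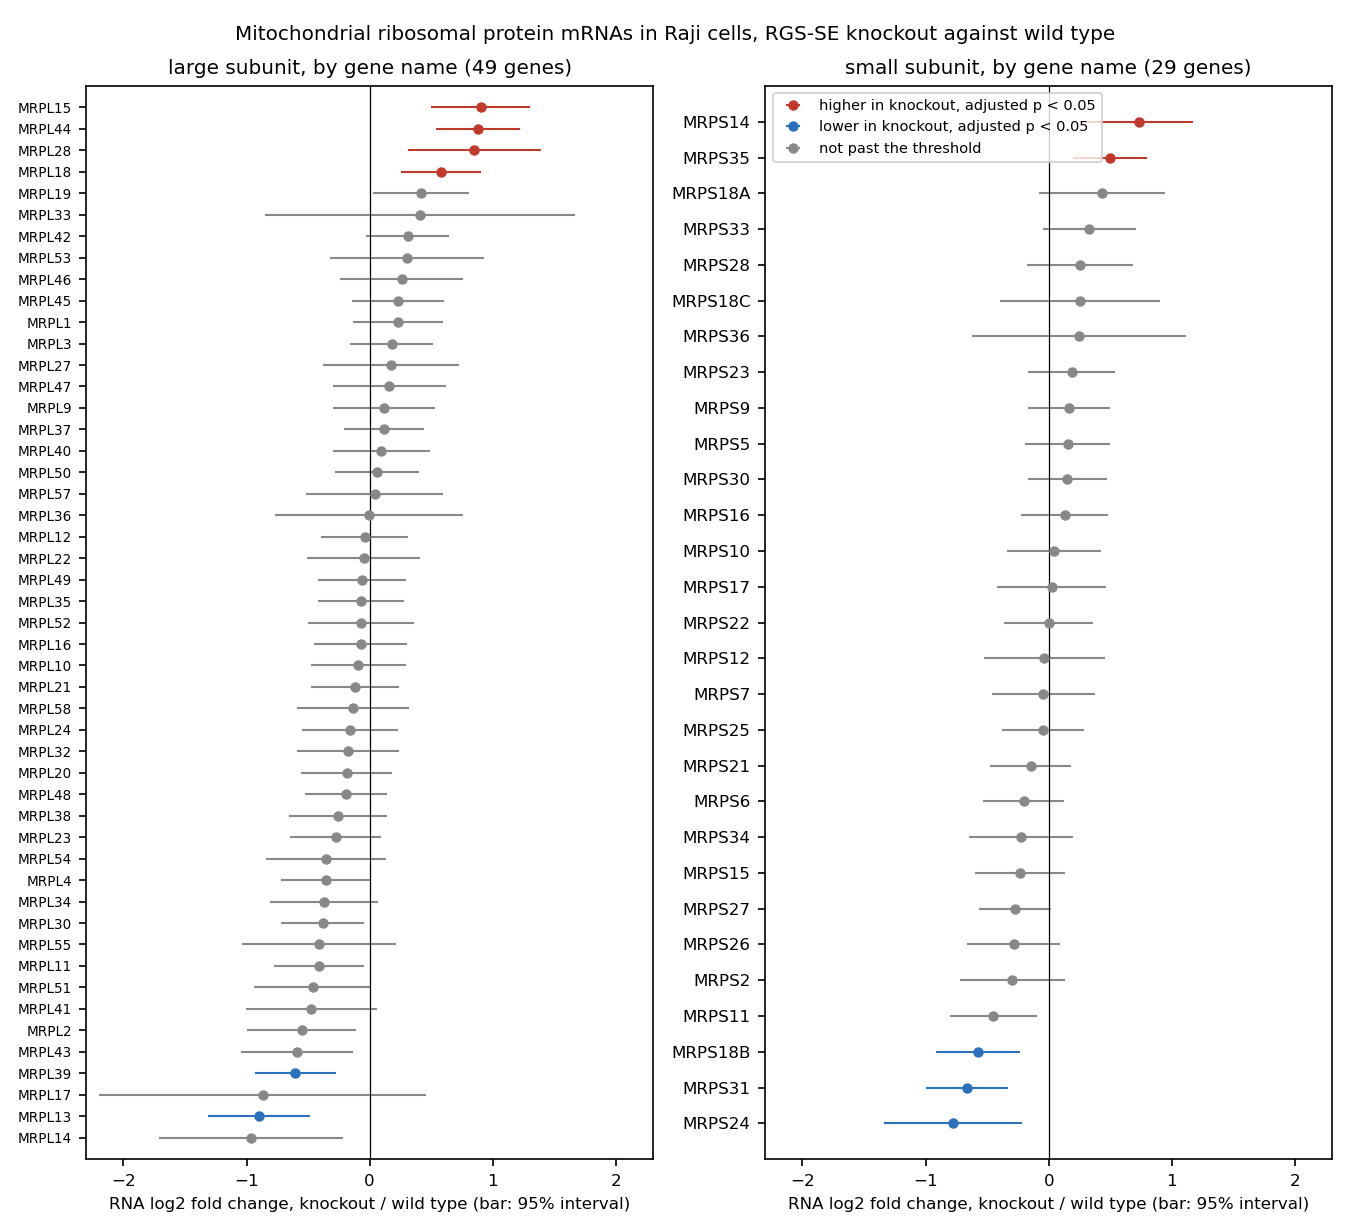
RNA log2 fold change of the knockout over the wild type (point) with its 95% interval (bar) for each large subunit gene (left) and small subunit gene (right), sorted by value; red, higher and blue, lower past an adjusted p of 0.05 (DESeq2). The 11 coloured genes lie between -0.90 and 0.90, and the widest bar is that of MRPL17.

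In the large subunit, the mRNAs that rose were MRPL15, MRPL44, MRPL28 and MRPL18. MRPL44, which carries a ribonuclease III fold and is mutated in an inherited cardiomyopathy, is encoded at chr2:223957463-223967714. Its fitted normalised count was 1410 in the wild type and 2592 in the knockout, a 1.84-fold rise. In the authors' deposited table its log2 fold change was 0.88 (SE 0.17, adjusted p 8.79e-06 by DESeq2), the smallest adjusted p of the 78 members. MRPL15, the counterpart of bacterial L15, lies on chromosome 8 and went from 758 to 1416, 1.87-fold. Its log2 fold change was 0.90 in the authors' deposited table (SE 0.20, adjusted p 0.000156 by DESeq2). MRPL28, the counterpart of bacterial L28, at chr16:366969-371289, went from 338 to 609 (1.80-fold). Its log2 fold change was 0.85 in the authors' deposited table (SE 0.28, adjusted p 0.0151 by DESeq2). MRPL18, related to the bacterial protein that binds 5S rRNA, at chr6:159789812-159798436, went from 2246 to 3355. Its log2 fold change was 0.58 in the authors' deposited table (SE 0.17, adjusted p 0.00492 by DESeq2).

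The large subunit mRNAs that fell were MRPL13 and MRPL39. MRPL13, the counterpart of bacterial L13 and also on chromosome 8, went from a fitted 1234 in the wild type to 661 in the knockout, or 53.5% of the wild type. In the authors' deposited table it fell by 0.90 on the log2 scale (SE 0.21, adjusted p 0.000286 by DESeq2). MRPL39, a mitochondria-specific protein related to threonyl-tRNA synthetases, at chr21:25585656-25607517, went from 2866 to 1888, or 65.9%. It fell by 0.60 in the authors' deposited table (SE 0.17, adjusted p 0.00306 by DESeq2). Just outside the threshold were MRPL43 (adjusted p 0.0556), MRPL14 (0.0579) and MRPL2 (0.0691) in the authors' deposited table, with log2 fold changes of -0.59, -0.96 and -0.55. MRPL14 therefore had the lowest estimate of all 78 members without passing DESeq2's threshold, on a mean count of 302 and with an SE of 0.38. MRPL17 was at -0.87 with an SE of 0.68 in the authors' deposited table, the largest SE of the 78 on a mean count of 1101.

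In the small subunit, MRPS14 and MRPS35 rose. MRPS14, the counterpart of bacterial S14, at chr1:175010789-175023425, went from 534 to 888, 1.66-fold. Its log2 fold change was 0.74 in the authors' deposited table (SE 0.22, adjusted p 0.00856 by DESeq2). MRPS14 shares exon sequence on the opposite strand with CACYBP. MRPS35, a protein without a bacterial counterpart, at chr12:27710822-27756295, went from 4153 to 5868, 1.41-fold. Its log2 fold change was 0.50 in the authors' deposited table (SE 0.15, adjusted p 0.00854 by DESeq2).

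The small subunit mRNAs that fell were MRPS24, MRPS31 and MRPS18B. MRPS31, another mitochondria-specific protein, at chr13:40729128-40771190, went from 3098 to 1958, or 63.2% of the wild type. It fell by 0.66 in the authors' deposited table (SE 0.17, adjusted p 0.00119 by DESeq2). MRPS31 has pseudogene copies on the same chromosome, so the split of its reads is uncertain. MRPS18B, one of several human paralogues of bacterial S18, at chr6:30617840-30626395, went from 4916 to 3299, or 67.1%. It fell by 0.58 in the authors' deposited table (SE 0.17, adjusted p 0.0077 by DESeq2). Its paralogues MRPS18A and MRPS18C were at 0.43 (SE 0.26) and 0.25 (SE 0.33) in the authors' deposited table, short of the threshold. MRPS24, the counterpart of bacterial S3, at chr7:43866558-43869893, went from 498 to 291, or 58.4%. It fell by 0.78 in the authors' deposited table (SE 0.29, adjusted p 0.0387 by DESeq2), and it overlaps a readthrough gene annotated with its own exons. The next by adjusted p were MRPS11 (0.0609), MRPS27 (0.201) and MRPS33 (0.242) in the authors' deposited table.

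Members were also grouped by known places in the ribosome, after the values were seen, and no test was made over these groups. The stalk proteins, which recruit translation factors, were at -0.41 for MRPL11 (SE 0.19), -0.09 for MRPL10 (SE 0.20) and -0.04 for MRPL12 (SE 0.18) in the authors' deposited table, and none passed. Around the exit tunnel, where the new protein leaves, MRPL22, MRPL23, MRPL24, MRPL45 and MRPL47 lay between -0.28 and 0.23 in the authors' deposited table, and none of these passed. MRPL17, MRPL39 and MRPL44, also placed near the tunnel exit, lay further out, at -0.87, -0.60 and 0.88. Of these, MRPL39 and MRPL44 passed, as given above, and MRPL17 did not. In the central protuberance, where 5S rRNA sits in bacteria, MRPL18 rose, and MRPL27, MRPL38, MRPL40, MRPL46, MRPL48, MRPL55 and MRPL58 lay between -0.41 and 0.26. MRPS12, the counterpart of the bacterial decoding-site protein S12, had a fitted 519 in the wild type and 506 in the knockout. MRPS5, the member with the highest mean count, had 9496 and 10576 (0.16 in the authors' deposited table, SE 0.18).

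The precision differed among members. In the authors' deposited table the SE ran from 0.16 to 0.68 in the large subunit (median 0.20) and from 0.15 to 0.44 in the small one (median 0.18). The most precise value was that of MRPS27, a protein with pentatricopeptide repeats, which had a fitted 7230 in the wild type and 5970 in the knockout and a 95% interval from -0.57 to 0.02. MRPL3, the counterpart of bacterial L3 and the most counted large subunit gene, had 4853 and 5490, with an interval from -0.16 to 0.52. MRPS30 had 2736 and 3039, with an interval from -0.17 to 0.47. For these 3 genes a change of 1 log2 unit lay outside the interval. The least counted members were looser: MRPL33 had 71.1 and 94.2, with an interval from -0.85 to 1.66, and MRPS36 had 121 and 143, with one from -0.62 to 1.11. MRPL36 had 178 in the wild type and 177 in the knockout, with an interval from -0.77 to 0.76.

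The same genes were next examined for accessibility of their promoters. Of the 31 large subunit promoter peaks, 4 were higher and 5 lower in the knockout. Of the 19 small subunit peaks, 1 was higher and 3 lower. Together 26.0% of the member peaks were called, against 34.2% of all 8420 promoter peaks, 14.2% higher and 20.0% lower. The median log2 fold change was -0.01 for the large subunit peaks, -0.12 for the small subunit ones and -0.06 for all promoter peaks. No member peak differed by more than 1 log2 unit.

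The peak with the largest change was that of MRPS34 (chr16:1772118-1773791), which is needed for a stable small subunit and is mutated in a form of Leigh syndrome. Its fitted normalised count was 402 in the wild type and 802 in the knockout, 1.00 on the log2 scale in the authors' deposited table (SE 0.11, adjusted p 2.08e-17 by DESeq2). The MRPL28 peak (chr16:370405-371124) went from 282 to 498, with 0.82 in the authors' deposited table (SE 0.13, adjusted p 1.23e-08 by DESeq2). The MRPL18 peak (chr6:159789391-159790935), with a mean of 2913 the highest of the 50, went from 2449 to 3377, with 0.46 in the authors' deposited table (SE 0.05, adjusted p 1.54e-18 by DESeq2). The peaks of MRPL44 and MRPL15 rose by 0.31 (SE 0.11) and 0.30 (SE 0.08) in the authors' deposited table. All 5 promoters that opened belong to genes on chromosomes 2, 6, 8 and 16.

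The promoter peaks that fell changed less. MRPL13 fell by 0.51 in the authors' deposited table (SE 0.17), MRPL39 fell by 0.43 (SE 0.09), MRPL45 fell by 0.34 (SE 0.09), MRPL55 fell by 0.30 (SE 0.09) and MRPL17 fell by 0.23 (SE 0.09). MRPL45 binds the inner membrane near the exit tunnel, and MRPL55 is the counterpart of bacterial L31. In the small subunit, MRPS14 fell by 0.27 (SE 0.10), MRPS30 fell by 0.24 (SE 0.08) and MRPS18B fell by 0.23 (SE 0.08) in the authors' deposited table. For the MRPL39 peak (chr21:25607175-25608786) this is a fitted 994 in the wild type and 736 in the knockout.

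Promoter peaks were set beside the RNA of the same genes. Of the 11 genes whose RNA changed, 10 had a promoter peak of their own name, and in 9 of these the peak had the sign of the RNA. Among all genes tested, 1695 were called in RNA and had a promoter peak of their name, and 72.2% of these had a peak of the same sign. In 7 members the peak also passed the threshold in that direction, beside 45.3% of the 1695, and the members' shares were not tested against these: MRPL15, MRPL44, MRPL28 and MRPL18 higher, MRPL13, MRPL39 and MRPS18B lower. The peaks of MRPS31 and MRPS24 were at -0.12 and -0.16 in the authors' deposited table, short of the threshold. MRPS14 went against this: its RNA rose by 0.74 while its peak fell by 0.27 in the authors' deposited table. In 5 genes the peak passed and the RNA did not (MRPL45, MRPL55, MRPL17, MRPS30 and MRPS34). Over the 50 genes with both values, Pearson's r was 0.41 and Spearman's rho 0.30, as a description over genes that share the same libraries. Over all 6803 genes with a promoter peak these were 0.59 and 0.37.

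**Figure D3:**
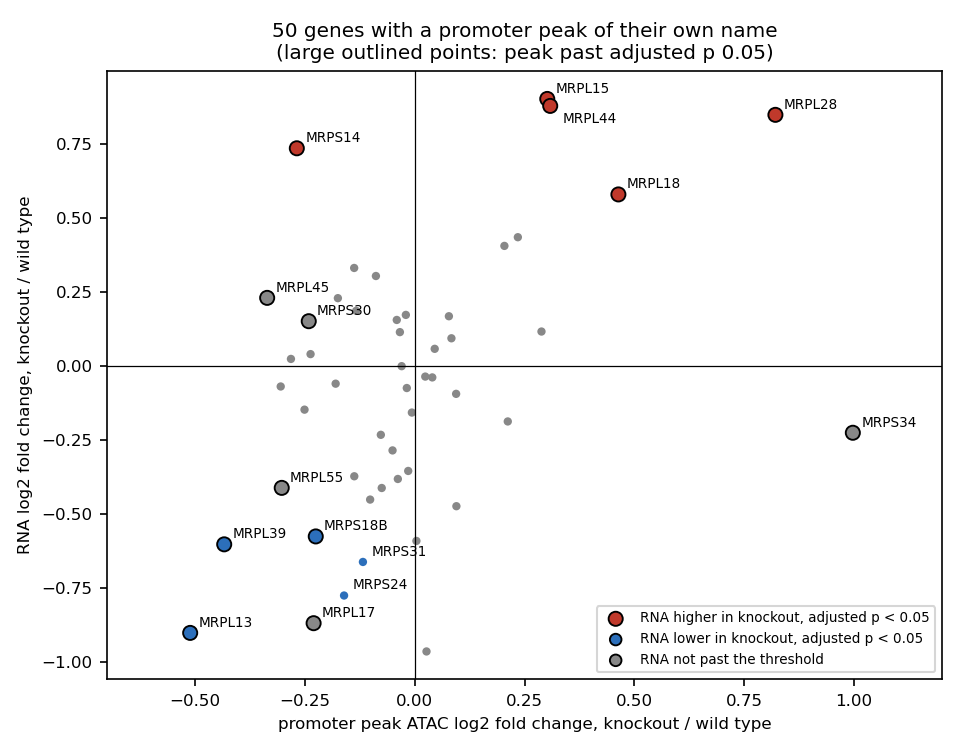
Promoter peak log2 fold change (horizontal) against RNA log2 fold change (vertical), knockout over wild type, for the 50 genes with a promoter peak of their own name; colour gives the RNA call and large outlined points are peaks past an adjusted p of 0.05 (DESeq2). MRPL28 and MRPL18 are high on both axes, MRPL13 and MRPL39 low on both, and MRPS34 lies far to the right with an RNA value of -0.23.

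For 28 members no promoter peak carried their name. Among them is MRPS35, whose peak over the start (chr12:27710272-27711696) the authors' deposited table classes as intronic. It was higher in the knockout, at 0.29 (SE 0.11, adjusted p 0.0283 by DESeq2), as was the RNA. In 14 of these a promoter peak under another name lay at or within 1000 bases of the gene's start, as where 2 genes start close together. Of these 14 peaks 2 were higher, 2 were lower and 10 did not pass, where 34.2% of all promoter peaks were called. For MRPL54 and MRPL36 the peak counted here lay 550 and 866 bases from the start. Each also had a nearer peak of its own name, classed as intronic. That of MRPL54 was lower, at -0.22 in the authors' deposited table (SE 0.08, adjusted p 0.0209 by DESeq2), and that of MRPL36, at -0.32, did not pass. Of the remaining 14 members, 13 had a peak of their own name within 1000 bases of the start that was classed as exonic, intronic or 5' UTR, and of these 13 peaks MRPS35 was higher, MRPS28 lower and 11 did not pass. The peak at the start of MRPL51, named for NCAPD2, fell by 0.41 in the authors' deposited table (SE 0.06, adjusted p 2.43e-09 by DESeq2), while MRPL51 RNA was at -0.46 (SE 0.24) and did not pass. MRPL46 and MRPS11 share 1 peak between their starts, at -0.10 in the authors' deposited table, with RNA at 0.26 and -0.45, neither past the threshold. In all, 136 peaks not classed as promoter were named for members as the nearest gene, the own-named start peaks above among them. Of the 136, 18 were higher and 18 lower, or 26.5%, beside 36.1% of all peaks outside promoters. The largest rise was at an intergenic peak 124606 bases from the start of MRPS30 (chr5:44932995-44934111), 3.11 in the authors' deposited table (SE 0.48, adjusted p 1.95e-09 by DESeq2). MRPS30 mRNA was at 0.15 (SE 0.16), and its divergent noncoding transcript MRPS30-DT was at 1.54 in the authors' deposited table (SE 0.54, adjusted p 0.0251 by DESeq2).

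Of the 11 changed members, 5 lie in stretches of chromosome where most peaks moved together. The median log2 fold change of all ATAC peaks within 5 Mb was 1.03 around MRPL28 and around MRPS34, 0.54 around MRPL18, 0.49 around MRPL44, 0.44 around MRPL15 and -0.74 around MRPL13. Around the other 6 genes whose RNA changed it lay between -0.14 and 0.04. The part of these stretches in the results was not tested. Between RNA and the local ATAC median, Pearson's r was 0.18 and Spearman's rho 0.15 over all 17013 genes tested. Over the 78 members these were 0.41 and 0.14. The subtractions below nevertheless take the local median in full, and their p-values treat it as free of error. With the local ATAC median subtracted, the RNA value was 0.04 for MRPL18, -0.18 for MRPL28, 0.38 for MRPL44, 0.47 for MRPL15 and -0.16 for MRPL13, and none of these 5 passed the threshold. The promoter peaks of the same 5 genes were at -0.08, -0.21, -0.19, -0.13 and 0.25 after this subtraction, each with a sign opposite to the deposited value and none past the threshold. Where the surroundings were near 0, the RNA values moved less: MRPL39 was at -0.46 (adjusted p 0.0375), MRPS31 at -0.56 (0.0102), MRPS18B at -0.61 (0.00494), MRPS35 at 0.52 (0.00621) and MRPS14 at 0.84 (0.00222), with p-values recomputed from the deposited DESeq2 standard errors. MRPS24 was at -0.66 and no longer passed (0.0987). In all, 6 small subunit RNAs passed after this subtraction, 4 of them among the 5 called as deposited. The others were MRPS11, at -0.49, and MRPS34, given below.

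A second subtraction, of the median RNA change of genes within 5 Mb, was added after seeing the data. MRPL39 (-0.56, adjusted p 0.00792 from DESeq2's standard errors), MRPS31 (-0.67, 0.00122), MRPS14 (0.88, 0.00137) and MRPL44 (0.59, 0.00756) passed it. MRPS27, not past the threshold as deposited, also passed it, at -0.47 (0.0148), and passed when centred on its chromosome's median, at -0.41 (0.0360). MRPS35 came to -0.02, because the genes around it had a median of 0.52, and MRPS18B came to -0.39 and did not pass (0.117). MRPL39, MRPS31 and MRPS14 were thus the 3 changed members that passed as deposited and under both subtractions. For MRPL39 the promoter peak also passed after subtraction of the local ATAC median, at -0.30 (adjusted p 0.00429 from DESeq2's standard errors).

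MRPS34 showed the reverse. Its RNA had a fitted 4107 in the wild type and 3513 in the knockout, -0.23 in the authors' deposited table (SE 0.22, adjusted p 0.553 by DESeq2). Its promoter peak and the peaks around it were about 1 log2 unit higher, and genes within 5 Mb had a median RNA change of 0.75. Relative to the local ATAC median the RNA of MRPS34 was at -1.26 (adjusted p 2.43e-07 from DESeq2's standard errors), and relative to the local RNA median at -0.97 (0.000145). Both p-values treat the local median as free of error, and against no change its RNA did not pass. MRPL28, on the same end of chromosome 16, was at -0.18 and 0.10 on these scales.

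**Figure D4:**
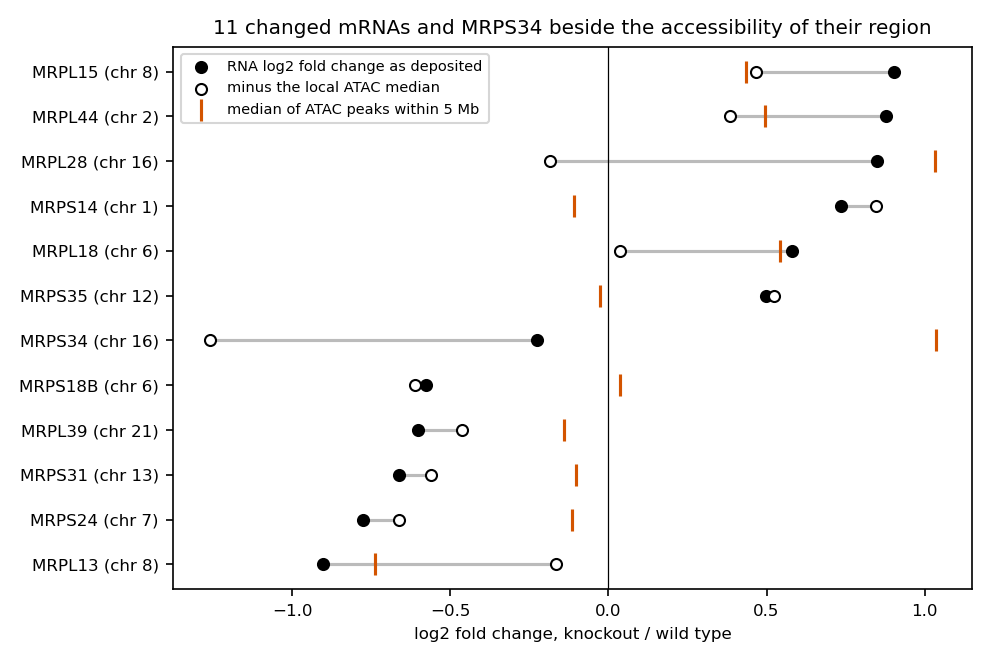
RNA log2 fold change of the 11 changed mRNAs and MRPS34 as deposited (filled), after subtraction of the local ATAC median (open), and that median itself (orange bar, all peaks within 5 Mb). MRPL28 and MRPL18 move to about 0 and MRPS34 from -0.23 to -1.26, whereas MRPS14, MRPS35 and MRPS18B stay in place.

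Companion genes were read from 6 lists. These hold other genes of mitochondrial translation, 12 genes of mitochondrial transcription and RNA processing, and 7 regulators of nuclear genes for mitochondria. Of 88 genes tested, 8 rose and 5 fell (14.8%), beside 14.1% of the 78 ribosomal proteins and 19.2% of all genes tested. Among 5 mitoribosomal proteins with other names, GADD45GIP1 fell by 0.58 in the authors' deposited table (SE 0.18), from a fitted 5234 to 3497. Among 16 translation factors 2 rose, the release factor MTRF1L (0.89 in the authors' deposited table, adjusted p 1.14e-05 by DESeq2) and RMND1 (0.85, adjusted p 0.00526), both on chromosome 6 with local ATAC medians of 0.53 and 0.59. Among 26 assembly factors 3 rose and 1 fell. MTERF4, which guides rRNA methylation, was at 1.07, NDUFAB1, the mitochondrial acyl carrier protein, at 1.33, and the helicase DDX28 at -0.98 in the authors' deposited table, with local ATAC medians of 0.77, 0.65 and -0.63. RPUSD4, a pseudouridine synthase, was at 0.62 with a local median of 0.01.

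Among 22 genes of mitochondrial aminoacyl-tRNA synthesis 2 rose and 2 fell. The 3 with the smallest adjusted p were EARS2 at 1.15, RARS2 at 1.08 and KARS1 at -0.68 in the authors' deposited table, beside local ATAC medians of 0.67, 0.62 and -0.66. The count of KARS1 is for the whole gene and cannot tell its mitochondrial from its cytosolic product. None of 12 genes of mitochondrial transcription and RNA processing passed DESeq2's threshold, 2 having an unadjusted p under 0.05, and the one with the smallest adjusted p, the tRNA 3' processing enzyme ELAC2, was at -0.41 (adjusted p 0.101) in the authors' deposited table. Of 7 regulators of nuclear genes for mitochondria, MYC was at 0.41 (SE 0.15, adjusted p 0.0424 by DESeq2) and YY1 at -0.41 (SE 0.15, adjusted p 0.0384), as the authors' deposited table gives them. The local ATAC medians of MYC and YY1 were -0.80 and 0.10, each opposite in sign to the RNA. GABPA and NRF1, whose motifs were searched above, were at -0.32 and -0.13 and did not pass. GABPB1, the partner subunit of GABPA, was at 0.48 in the authors' deposited table (SE 0.19, adjusted p 0.0550 by DESeq2), and did not pass either. Of 81 cytosolic ribosomal protein genes 10 rose and 5 fell (18.5%), with a median of 0.07 against -0.05 for the 78 mitochondrial ones.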

How the data were processed

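RNA sequencing and ATAC-seq of 4 libraries each were used as 2 tables of comparisons. Per the file headers, both hold the authors' DESeq2 results: a mean normalised count over the 4 libraries (signal), a log2 fold change with its SE, a Wald statistic (a score), and p-values with adjusted p-values. Distances of peaks to the nearest start are given in bases by the authors' deposited table. Per the submitters' processing notes, the tools named include Trim Galore, Trimmomatic, cutadapt, STAR, featureCounts, Bowtie2, HOMER and DESeq2, and the builds GRCh38 and hg38, with no role or version. The deposited values were read with python 3.11.15 (pandas 2.3.3, numpy 2.4.6, scipy 1.17.1). Gene positions and lengths came from GENCODE 44, promoter windows from RefSeq.

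Fitted counts per genotype were computed from mean and fold change. Means summed to 32830399 normalised counts over all genes, and depth per library was not given beyond the ratio in the report. The edgeR fit planned for counts could not be made, since the tables hold no counts. Tests were those of the authors, on 2 libraries per genotype that the labels call biological replicates. p-values after centring were recomputed from the deposited SE and readjusted over the whole table. On simulated data this was tested only for a shift common to all genes, removed by the median of all genes. Centring on chromosome or local medians was not simulated. Members and lists were chosen with earlier results of these data known. Members named are those past 0.05 in either assay, the next 3 by adjusted p, and the highest 3 per kb of exon and lowest 2 by mean in each subunit. Of each companion list at most 3 with the smallest adjusted p were named, plus others chosen after their values were seen (RPUSD4, GABPA, GABPB1, NRF1). Alternatives were a stricter threshold, a null of 1.5-fold, statistics scaled by their spread, centring on medians (all genes, promoter peaks, chromosome, within 5 Mb), filters on the mean, a GC trend, and other choices of peak or subunit.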

Additional observations from a re-analysis of the deposited data

How the results depend on the processing

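No paired analysis was possible because the tables hold no values per library. For the same reason leaving out each replicate, and the fit with the replicate number as a block, were not run. The counts of called members (6 and 5 in RNA, 9 and 4 in promoter peaks, for large and small subunit) and of companion genes (13) stayed within 1.5 times under the settings not named here, though the genes turned over: companions numbered 11 after subtraction of the local ATAC median, 5 of them among the 13, and 9 after that of the local RNA median, 4 of them among the 13. Centred on the chromosome median, 9 large subunit RNAs passed (3 higher, 6 lower), 5 of them among the 6. Against a null of 1.5-fold, they were 0 and 0 in RNA, 0 and 1 in peaks, and 0 for companions. At an unadjusted p under 0.05 from DESeq2's estimates, 0 large subunit RNAs, 0 small subunit RNAs, 0 large subunit peaks and 4 companions passed that null. With the statistics scaled by their robust spread (1.70 in RNA, 2.46 in ATAC), they were 0 and 0 in RNA, 1 and 1 in peaks, and 3 for companions, with 5 large and 1 small subunit RNAs at an unadjusted p under 0.05. After subtraction of the local ATAC median, 1 large subunit RNA, 5 large subunit peaks and 2 small subunit peaks passed. After subtraction of the local RNA median, 2 large subunit RNAs passed. Small subunit peaks numbered 2 at a threshold of 0.01, and 1 when centred on the median of all promoter peaks. Directions turned under the local ATAC median for the RNA of MRPL28 (-0.18) and for the peaks of MRPL28 (-0.21), MRPS34 (-0.039), MRPL44 (-0.19), MRPL18 (-0.082), MRPL15 (-0.13) and MRPL13 (0.25). They turned under the local RNA median for MRPS35 (-0.020) and MRPL18 (-0.35). Counting MRPS30 and MRPS18A with the large subunit and leaving out MRPS36, an alternative chosen after seeing the data, gave 6 and 5 RNA calls and 10 and 3 peak calls. The cause of these shifts was not tested. The 2 libraries a genotype limit the precision: the 95% interval of 13 of 78 members reaches past 1 log2 unit.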
